A study of Argopecten irradians concentricus with 9 samples.

Results

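HSP70 proteins are ATP-driven chaperones that bind exposed hydrophobic stretches of unfolded proteins and release them for refolding or degradation. Animals carry cognate members, which are made at all times, and inducible members, whose genes are switched on by heat shock factor when unfolded proteins accumulate. DnaJ co-chaperones load client proteins onto HSP70, and BAG proteins act as nucleotide exchange factors that trigger client release. Inducible HSP70 genes of many animals lack introns, and in Drosophila they lie as inverted pairs.

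The 7 gene models described here are those listed by gene identifier whose best protein match in the deposited table is heat shock protein 70 B2 (4 models), heat shock protein 70 A1, heat shock 70 kDa protein or major heat shock 70 kDa protein Ab. They are 7 of 28864 gene models in the table. A further model, evm.TU.Contig137034.1, also matches heat shock 70 kDa protein, was not among the listed identifiers and averaged 0.294 FPKM over all libraries. The names are similarities to proteins of other species (B2 and A1 are mosquito names, Ab a fruit fly name), so "inducible-type" describes the match and not a measured response. Expression was measured by RNA sequencing in adductor muscle, which closes the shell, of bay scallops (Argopecten irradians concentricus) 1 year old kept at high, low or room water temperature, with 3 libraries per group and 9 in all. Neither the degrees nor the duration of treatment is given in the sources at hand. The labels state that RNA was isolated per tank and do not say which animals or tanks the 3 libraries of a group came from, so the p-values reflect only how much these libraries vary.

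Recovered read totals were 11716140 to 16229040 per library. The depth divisors behind the FPKM ranged more widely, from 9062875 (high temperature replicate 3) to 19836069 (high temperature replicate 1). The summed FPKM ran from 492312 (low temperature replicate 1) to 1157874 (high temperature replicate 3). Replicate 3 had the highest share of reads in the 50 most abundant gene models in every group. The shares were 62.5% at high, 58.8% at low and 58.0% at room temperature, with low temperature replicate 2 close at 58.3%. The label of muscle fitted the contractile genes: the 16 contractile models summed to 64930 to 172185 FPKM at high, 62940 to 111507 FPKM at low and 82352 to 103598 FPKM at room temperature. Markers of ciliated epithelium (72 models, 11 of them at 0 throughout) summed to 18.8 to 29.7, 14.2 to 22.2 and 20.6 to 33.1 FPKM at high, low and room temperature. The 26 gonad models summed to 27.6 to 40.6, 29.9 to 43.6 and 32.3 to 36.7 FPKM in the same order of groups. The 61 haemocyte models, led by big defensin, summed to 263 to 702, 126 to 698 and 314 to 870 FPKM. The 52 models of the digestive gland list, 15 of them at 0 throughout, summed to 30.1 to 37.6 FPKM at high, 40.5 to 46.5 FPKM at low and 26.2 to 30.6 FPKM at room temperature, so every low temperature library was above all others. That list was led by inter-alpha-trypsin inhibitor and neurotrypsin models, and its 30 models named as digestive enzymes, 10 of them at 0 throughout, came to a summed mean of 5.06 FPKM. The part of this difference in the results below was not tested.

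The 7 models lay on 4 contigs, and most were single uninterrupted blocks. On Contig769, evm.TU.Contig769.20 (396686 to 397642, minus strand, 957 bases) and evm.TU.Contig769.21 (397960 to 398634, minus strand, 675 bases) were separated by 317 bases. The model evm.TU.Contig769.22 (400687 to 402630, plus strand, 1944 bases) pointed away from them, with 2053 bases between the starts of Contig769.21 and Contig769.22. The shorter models Contig769.20 and Contig769.21 together spanned 1949 bases, close to the 1944 bases of Contig769.22. Whether they are parts of a single gene was not tested.

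On Contig177, evm.TU.Contig177.28 (489006 to 490437, minus strand, 1401 bases) and evm.TU.Contig177.33 (508477 to 510904, plus strand, 2428 bases) also pointed away from each other, 18040 bases from start to start. Between them lay short minus-strand models that also carry HSP70 family names. The remaining models stood alone: evm.TU.Contig80.193 (Contig80, 4226737 to 4228955, minus strand, 2219 bases) and evm.TU.Contig626.55 (Contig626, 1236472 to 1238831, minus strand, 2360 bases). Coordinates are those of the deposited table, whose genome build the sources do not name.

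The annotated length equalled the whole genomic span, meaning no intron was annotated, in 6 of the 7 models (85.7%). Across the table this held for 5009 of 28864 models (17.4%), and for 644 of 8624 models (7.47%) that passed the expression filter. In the exception, Contig177.28, the span exceeded the length by 31 bases. Among the 10 other HSP70 models that passed the filter, with families 12A and 12B left out, it held for 0. With the models below the filter included, it held for 6 of 19 (31.6%). These included the short HSP70-named models between Contig177.28 and Contig177.33. No nucleotide or protein sequence of these models was used here, so neither identity between them nor promoter motifs were examined.

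**Figure D1:**
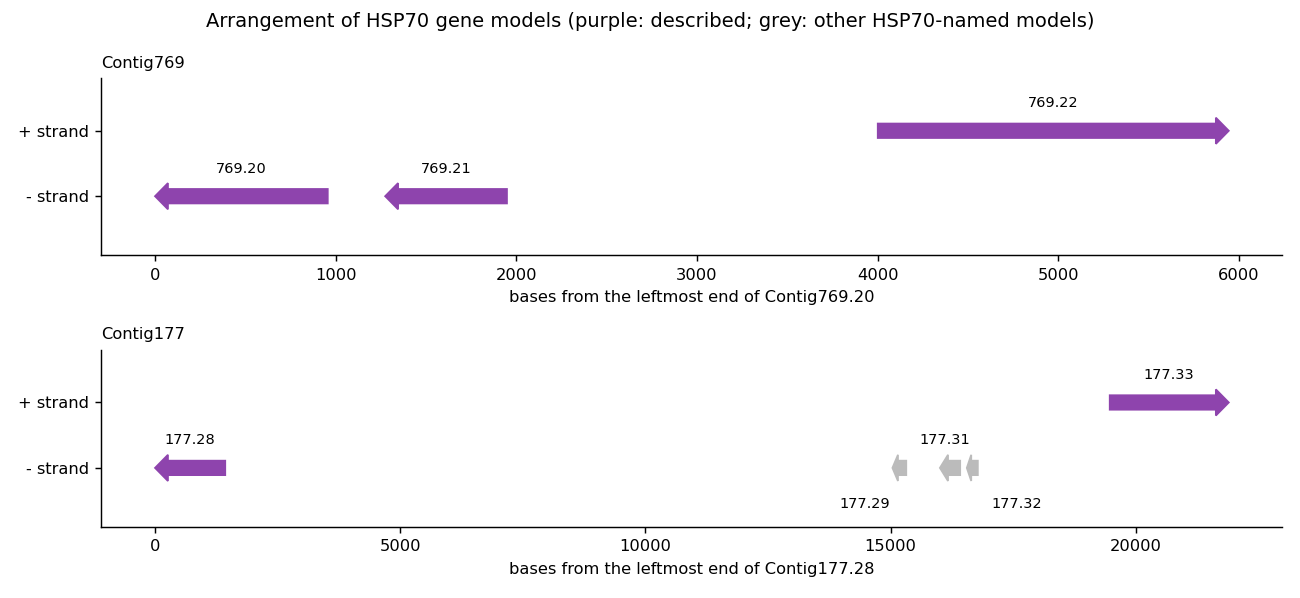
Position and strand of the HSP70 gene models on Contig769 (top) and Contig177 (bottom), in bases from the leftmost end of the first model; each arrow is a gene model pointing in its direction of transcription. In both groups the outer models point away from each other, with 2053 bases between the starts of Contig769.21 and Contig769.22 and 18040 between those of Contig177.28 and Contig177.33.

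The values analysed are FPKM, in which read numbers are divided by model length and by a depth factor. Levels of different models are set beside each other with a limit: reads shared by similar models may be lost or split. The handling of such reads is not given. All 7 models passed the expression filter of a mean of at least 1 FPKM over the 9 libraries. Their means ran from 3.76 FPKM (Contig80.193) to 14.2 FPKM (Contig177.28), ranks 4085 and 1569 of 8624 tested models. Differences were tested with limma on log2(FPKM + 1), with Benjamini-Hochberg adjustment over all 8624 tested models, and called at an adjusted p under 0.05. Because of the added 1, log2 differences understate changes of models near or below 1 FPKM.

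The Contig769 models were lowest at low temperature. The Ab match Contig769.21 had 7.39, 12.6 and 7.03 FPKM at high temperature, 0.874, 1.32 and 0.136 FPKM at low temperature and 10.4, 12.3 and 7.12 FPKM at room temperature. All 3 low temperature libraries lay below every other library, and those at high and room temperature overlapped. The low temperature values rested on 11, 12 and 1 reads.

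Its neighbour Contig769.20, matching heat shock 70 kDa protein, had 2.42, 7.63 and 3.69 FPKM at high, 0.729, 0.619 and 0.192 FPKM at low and 5.18, 8.96 and 4.81 FPKM at room temperature. The same separation was seen, on 13, 8 and 2 reads in the low temperature libraries. The B2 match Contig769.22 had 6.41, 12.8 and 5.17 FPKM at high, 0.607, 1.87 and 0.994 FPKM at low and 7.62, 14.8 and 5.70 FPKM at room temperature. Here too the low temperature libraries lay below all 6 others, on 22, 49 and 21 reads.

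The B2 match on Contig80, Contig80.193, had its highest mean at high temperature. It had 5.34, 12.2 and 3.68 FPKM at high, 0.218, 0.700 and 0.664 FPKM at low and 3.09, 4.44 and 3.55 FPKM at room temperature. The low temperature libraries were again apart from all others. Every high temperature library exceeded the 2 lower room temperature libraries, but high temperature replicate 3 (3.68) lay below room temperature replicate 2 (4.44), so those groups overlapped.

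The Contig177 models had the highest mean FPKM and kept several FPKM at low temperature. The B2 match Contig177.28 had 12.3, 19.2 and 8.51 FPKM at high, 8.54, 7.29 and 8.87 FPKM at low and 13.1, 38.0 and 12.3 FPKM at room temperature. The low and room temperature groups did not overlap, whereas high temperature replicate 3 lay within the low temperature range. The B2 match Contig177.33 had 12.2, 14.1 and 4.77 FPKM at high, 5.90, 4.02 and 3.75 FPKM at low and 10.4, 19.1 and 7.66 FPKM at room temperature. Its groups were placed in the same way.

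The A1 match Contig626.55 had another pattern. It had 6.69, 5.92 and 15.6 FPKM at high, 3.07, 2.85 and 6.90 FPKM at low and 2.91, 2.17 and 8.92 FPKM at room temperature. Replicate 3 was the highest library of every group, 2.42 to 4.10 times the lowest of its group. Its log2(FPKM + 1) varied with the share of reads in the 50 most abundant models (Pearson r = 0.50 over 9 libraries, 0.72 on deviations from group means) and with its unnamed neighbour evm.TU.Contig626.54 on the same strand (r = 0.73 and 0.80), given as descriptions. The part of these measures in its levels was not tested.

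**Figure D2:**
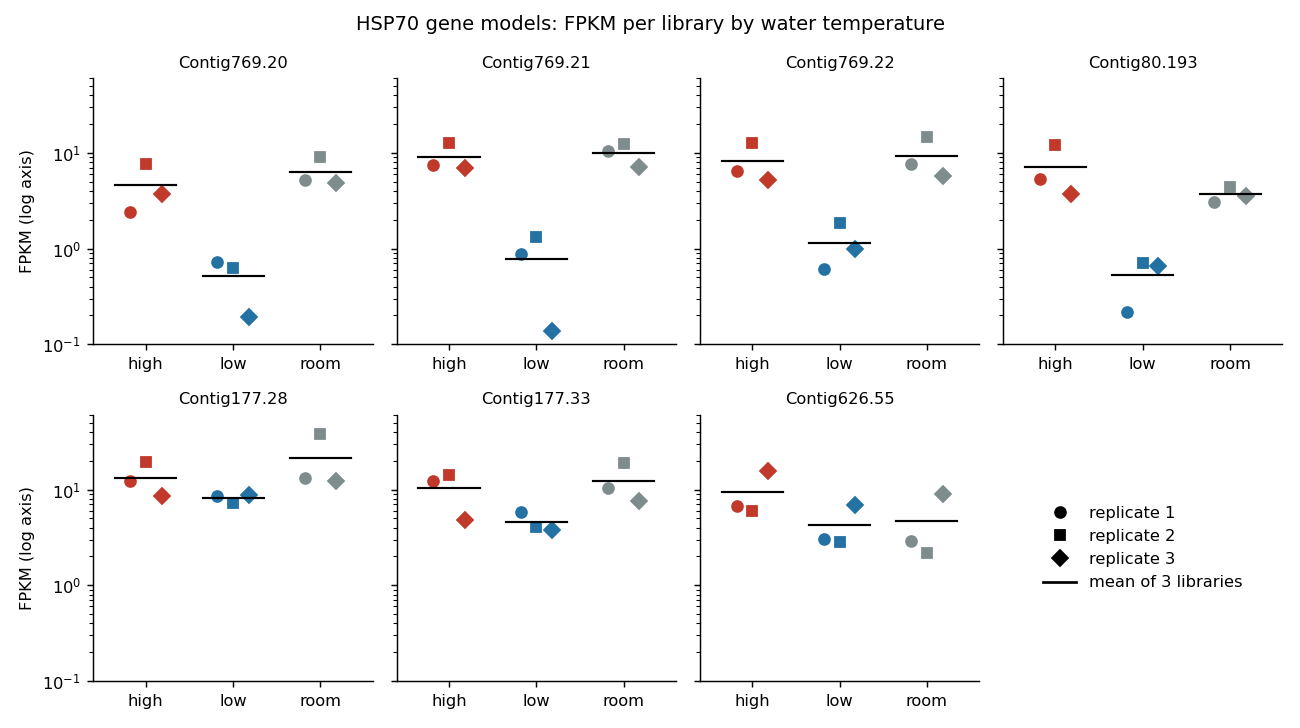
FPKM of each HSP70 gene model (log axis) in the 3 high, 3 low and 3 room temperature libraries; symbols mark the replicate and bars the group mean. For the Contig769 models and Contig80.193 every low temperature library is below every other library, while for Contig626.55 replicate 3 is the highest in each group.

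Low was set against room temperature to see the response of the muscle to cold. The Ab match Contig769.21 fell to 0.775 ± 0.596 FPKM at low temperature, against 9.95 ± 2.62 FPKM at room temperature (SD, n = 3 each), a ratio of means of 0.0779 (log2 difference -2.66, SE 0.33, limma adjusted p = 0.0131). Its neighbour Contig769.20 fell to 0.513 ± 0.283 FPKM at low, against 6.31 ± 2.30 FPKM at room temperature (log2 difference -2.25, SE 0.36, limma adjusted p = 0.0422). These were 2 of 7 models, where 0.151% of all tested models were called lower. Their calls depended on single libraries. The Contig769.21 call was lost without low temperature replicate 1, low temperature replicate 3 or room temperature replicate 1 (limma adjusted p = 0.0743, 0.0748 and 0.0759). The Contig769.20 call was lost without any library of the low or room temperature groups or high temperature replicate 3 (0.0782 to 0.184). With voom on the recovered reads neither was called (0.0923 and 0.164).

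Of the others, Contig769.22 averaged 1.16 ± 0.644 FPKM at low and 9.38 ± 4.81 FPKM at room temperature and did not pass (log2 difference -2.21, SE 0.40, limma adjusted p = 0.0771). With the replicate number as a block its limma adjusted p was 0.0178. For Contig80.193 the means were 0.527 ± 0.269 and 3.69 ± 0.685 FPKM at low and room temperature (log2 difference -1.63, SE 0.35, limma adjusted p = 0.167). The Contig177 models had smaller differences: Contig177.28 averaged 8.23 ± 0.834 and 21.1 ± 14.6 FPKM at low and room temperature (log2 difference -1.08, limma adjusted p = 0.53), and Contig177.33 averaged 4.56 ± 1.17 and 12.4 ± 5.96 FPKM (log2 difference -1.19, limma adjusted p = 0.44). The high spread of Contig177.28 came with room temperature replicate 2, at 38.0 FPKM. The A1 match Contig626.55 had 4.275 ± 2.28 and 4.67 ± 3.70 FPKM and a limma adjusted p of 0.999 (log2 difference 0.0034, SE 0.48).

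In 6 of the 7 models every low temperature library lay below every room temperature library, where this held for 8.74% of all tested models. The 6 were all except Contig626.55, and they are also the 6 with a log2 difference below 0, a sign shared by 54% of all tested models. Their direction was the same under all planned settings in which they were tested (19 for Contig769.20 and Contig80.193, 20 for the others). This adds no support. Several settings leave the difference itself unchanged, and groups that do not overlap keep their order when a library is left out. With every library rescaled to the same FPKM sum the count without overlap was 4. The 8.74% is for the deposited scaling, and the share of all tested models after rescaling is not given. The median log2 difference over the 7 models was -1.63, beside -0.04 over all 8624. In bulk muscle, fewer cells of a type and less RNA per cell cannot be told apart.

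High was set against room temperature to see the response to warmth. None of the 7 models passed the limma test, and in none did the groups separate, as they did for 8.97% of all tested models in the lower and 7.54% in the higher direction. Across all models limma called 0 (0%), with 825 at an unadjusted p under 0.05 (4.87% lower and 4.7% higher), of which 0 were among the 7. Of the 7, 5 had a log2 difference below 0, where 53.2% of all tested models did. The highest ratios of means were 2.02 for Contig626.55, which averaged 9.41 ± 5.39 FPKM at high and 4.67 ± 3.70 FPKM at room temperature (log2 difference 0.95, SE 0.48, limma adjusted p = 0.562), and 1.91 for Contig80.193, at 7.07 ± 4.51 and 3.69 ± 0.685 FPKM (0.65, SE 0.35, limma adjusted p = 0.592). The Contig769 and Contig177 models had ratios of 0.631 to 0.904 and log2 differences of -0.51 to -0.15. The direction of Contig177.33, Contig769.21 and Contig769.22 turned when single libraries were left out. Both the high and the low comparison used the same 3 room temperature libraries.

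The extremes were set against each other as well. The Ab match Contig769.21 was higher at high temperature, at 8.995 ± 3.09 FPKM against 0.775 ± 0.596 FPKM at low temperature (log2 difference 2.51, SE 0.33, limma adjusted p = 0.0151). The other called model was Contig80.193, at 7.07 ± 4.51 against 0.527 ± 0.269 FPKM, the widest ratio of means of the 7 at 13.4 (log2 difference 2.28, SE 0.35, limma adjusted p = 0.0383). These were 2 of 7 models, where 0.151% of all tested models were called higher. The models Contig769.20 (1.79, limma adjusted p = 0.0853) and Contig769.22 (2.03, 0.0853) did not pass, although Contig769.22 did with the replicate number as a block (limma adjusted p = 0.0178) or with array weights (0.0371). Nor did Contig177.28 (0.57, 0.664), Contig177.33 (0.93, 0.406) and Contig626.55 (0.95, 0.486) pass. All 7 differences were above 0, as were 50.9% of those of all tested models. The groups did not overlap in 4 of the 7, the Contig769 models and Contig80.193, where this held in the higher direction for 8.75% of all tested models. Without high temperature replicate 3 the count was 6. Smaller groups separate more easily, and the share of all tested models without that library is not given. The Contig769.21 call was lost without low temperature replicate 1 or 3 (limma adjusted p = 0.0529 and 0.0646), and the Contig80.193 call without any low temperature library, high temperature replicate 1 or room temperature replicate 1 or 3 (0.0614 to 0.17).

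**Figure D3:**
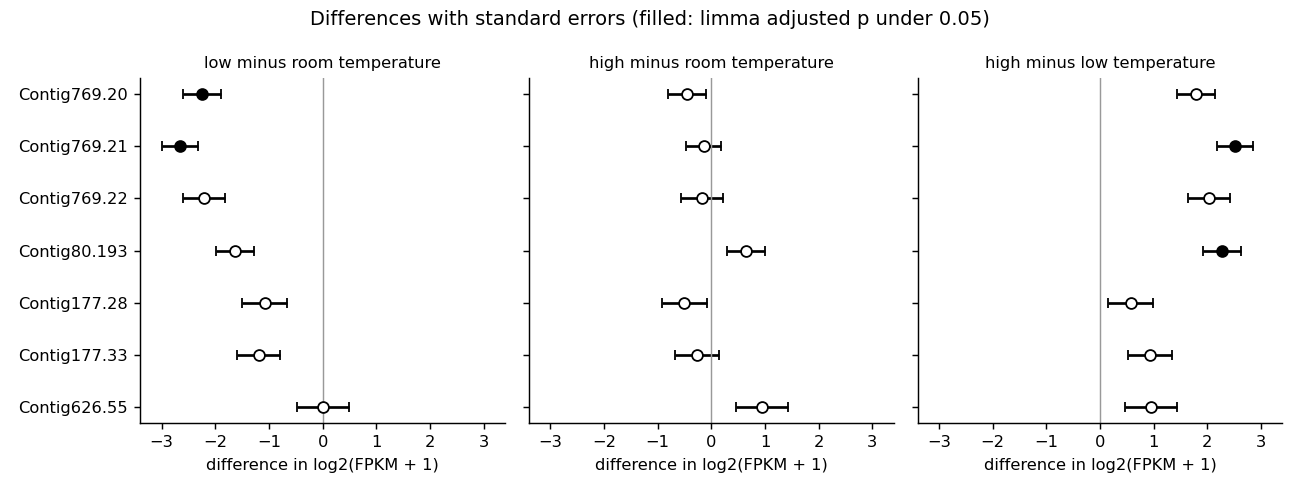
Difference in log2(FPKM + 1) with its standard error for each HSP70 gene model in the 3 comparisons; filled points have a limma adjusted p under 0.05 over all tested models. Filled are Contig769.20 and Contig769.21 for low minus room and Contig769.21 and Contig80.193 for high minus low, and none for high minus room.

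Because reads of neighbouring similar models may not be separable, the models of a contig were also joined into a single level, their reads divided by their added lengths. Joining adds only reads already counted, so it cannot restore reads left out as shared or reads divided between contigs. The Contig769 level was at 5.53, 11.4 and 5.12 FPKM at high, 0.690, 1.43 and 0.618 FPKM at low and 7.50, 12.8 and 5.73 FPKM at room temperature. It fell by 2.30 on the log2 scale at low against room temperature (SE 0.35, limma adjusted p = 0.0411), a call lost without each library except high temperature replicate 2 (0.0503 to 0.204), and was 2.07 higher at high than at low temperature without passing (limma adjusted p = 0.0651). The Contig177 level was at 12.2, 16.0 and 6.14 FPKM at high, 6.865, 5.22 and 5.63 FPKM at low and 11.4, 26.0 and 9.36 FPKM at room temperature. Its low temperature libraries lay below all room temperature libraries (log2 difference -1.14, limma adjusted p = 0.474).

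The loci were then set against each other within each library, which removes library scaling; these ratios were chosen after the values were seen. The log2 ratio of the Contig769 level to the Contig177 level was -1.15, -0.49 and -0.26 at high, -3.31, -1.87 and -3.19 at low and -0.60, -1.02 and -0.71 at room temperature. Low temperature libraries were all lower, with a mean difference of -2.01 from room temperature, and the exact two-sided permutation p was 0.1, the smallest that 3 against 3 libraries can give. For Contig80 over Contig177 the mean log2 ratio was -0.77 ± 0.40 at high, -3.65 ± 1.15 at low and -1.94 ± 0.58 at room temperature (SD, n = 3). These 3 groups did not overlap with each other (exact permutation p = 0.1 for each of the 3 comparisons). Contig80 over Contig769 was -0.14 ± 0.30 at high, -0.86 ± 0.90 at low and -1.16 ± 0.43 at room temperature, apart between high and room temperature (exact permutation p = 0.1). In all, 33 such ratio comparisons were computed, and with a smallest possible p of 0.1 none can pass a correction.

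The cognate model matching heat shock cognate 71 kDa protein, evm.TU.Contig134.84, is the HSP70 of highest level in this muscle. It had 210, 198 and 306 FPKM at high, 212, 238 and 197 FPKM at low and 229, 239 and 278 FPKM at room temperature, and did not pass between low and room temperature (log2 difference -0.20, limma adjusted p = 0.906). Of the summed FPKM of 26 HSP70 models (families 12A and 12B left out), the 7 models made up 13.9%, 16.4% and 9.73% at high, 5.93%, 5.24% and 6.57% at low and 12.8%, 19.6% and 11.4% at room temperature. Low temperature libraries were below all others in this share. Relative to the cognate model, the log2 ratio of the Contig769 level was -5.09 ± 0.90 at high, -7.99 ± 0.53 at low and -4.92 ± 0.69 at room temperature. The Contig177 level was at -4.46 ± 1.05, -5.20 ± 0.28 and -4.14 ± 0.86 in the same order. Both were lower in every low than in every room temperature library, with an exact permutation p of 0.1, and Contig626.55 overlapped (p = 0.6, exact permutation).

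**Figure D4:**
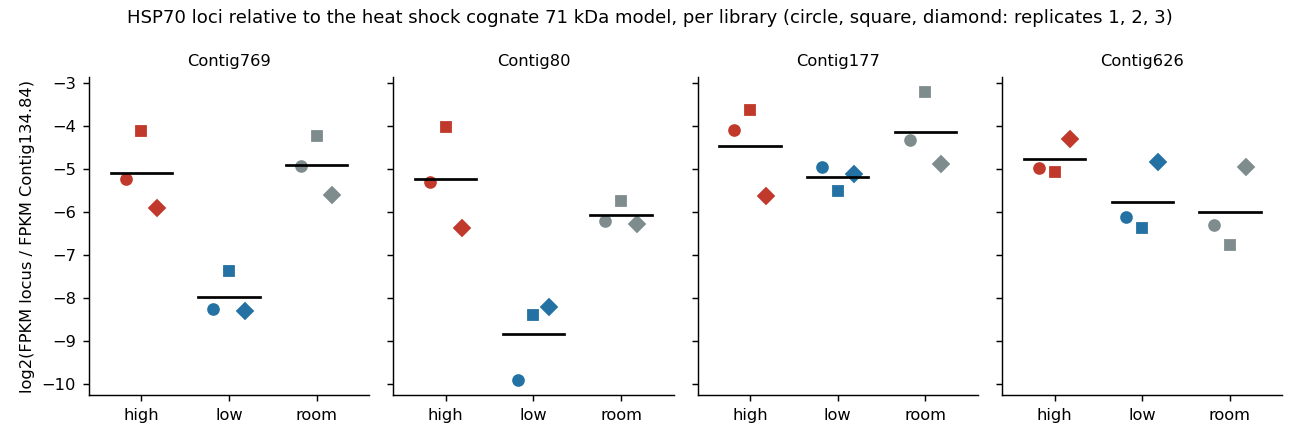
Log2 ratio of the FPKM of each HSP70 locus to that of the cognate model Contig134.84 in each library, with the group mean as a bar. The low temperature libraries are the lowest for Contig769 and Contig80, overlap the high temperature libraries for Contig177 and overlap both other groups for Contig626.

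Across the 9 libraries the 6 models other than Contig626.55 varied together. Pearson r of log2(FPKM + 1) was 0.63 to 0.96 over their 15 pairs, and 0.50 to 0.85 on deviations from group means. The models Contig769.20 and Contig769.21 had the highest r, at 0.96. With Contig626.55, r was -0.35 to 0.28, and -0.84 to -0.40 on deviations. These are descriptions over 9 libraries that share their groups and scaling. In all 6 models the highest room temperature library was replicate 2 and the highest high temperature library was replicate 2. Thus Contig177.28 in room temperature replicate 2 was 3.09 times its lowest room temperature value. The 78 kDa glucose-regulated protein models evm.TU.Contig141.23, evm.TU.Contig141.24 and evm.TU.Contig11594.1, picked after their values were seen, were likewise highest in replicate 2 of both groups. The cognate model Contig134.84 was highest in replicate 3 of both. The share of all tested models that were highest in replicate 2 of both groups is not given.

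The neighbouring genes gave no call. Of 18 models flanking or lying between the HSP70 models, up to 2 on each side, 7 passed the expression filter and 0 were called in any comparison by limma. Of these 7, purine nucleoside phosphorylase beside Contig177 was the most abundant, at 14.4, 16.4 and 10.2 FPKM at high, 23.9, 21.8 and 16.6 FPKM at low and 16.1, 15.1 and 11.3 FPKM at room temperature. Both models next to the Contig769 group matched dehydrogenase/reductase SDR family member 1 and stayed at or below 0.481 FPKM in every library. The co-chaperone model DnaJ homolog subfamily B member 4 lay on the same contig as Contig80.193, 200906 bases away with 8 models between.

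Among other genes of the chaperone system, lists were matched on protein names. Of 11 tested HSP70 relatives (cognate, endoplasmic reticulum, mitochondrial and HSP110 types) 0 passed in any comparison. This list was matched by another rule than the family with 10 other tested HSP70 models above, so the counts differ. For low minus room temperature 9 had a log2 difference below 0, against 54% of all tested models, with a median of -0.42. In 4 of the 11 the low temperature libraries all lay below those at room temperature, against 8.74% of all. In 3 the high temperature libraries all lay above those at low temperature, against 8.75% of all. Of 6 tested models of families 12A and 12B 0 passed, with a median of 0.17; the most abundant, a 12B match, was at 3.81 ± 0.805 and 6.73 ± 1.09 FPKM at low and room temperature. Of 29 tested DnaJ models 23 had a log2 difference below 0 for low minus room temperature, against 54% of all tested models, with a median of -0.31, and in 7 the low temperature libraries all lay below those at room temperature, against 8.74% of all. The test was passed by 1, against 0.151% of all tested models called lower. This was DnaJ homolog subfamily B member 4, at 9.115, 12.05 and 10.2 FPKM at low against 40.7, 30.5 and 32.9 FPKM at room temperature (log2 difference -1.64, SE 0.24, limma adjusted p = 0.0276). It was the DnaJ model called higher at high than at low temperature, at 55.3, 65.5 and 55.7 FPKM at high temperature (log2 difference 2.39, limma adjusted p = 0.0048).

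Of 9 tested HSP70 partners, 0 passed, while 8 lay below 0 for low minus room temperature and 6 had low temperature libraries all below those at room temperature (median -0.71). Of all tested models 54% lay below 0 and 8.74% were apart in that direction. The most abundant, a match to BAG domain-containing protein Samui, was at 3.54 ± 1.17 FPKM at low and 9.93 ± 2.40 FPKM at room temperature (log2 difference -1.28, limma adjusted p = 0.167). Of 5 tested HSP90 models 0 passed (median -0.40), and HSP 90-beta was at 76.7 ± 16.6 and 100.2 ± 1.94 FPKM at low and room temperature. The 3 small heat shock proteins (median -0.02) and the 10 tested chaperonin models (median -0.33) had 0 calls in the 3 comparisons. The lead models were alpha-crystallin B chain at 4044 ± 1036 and 4558 ± 2370 FPKM and T-complex protein 1 subunit theta at 69.4 ± 11.1 and 79.8 ± 3.08 FPKM, at low and room temperature. The heat shock factor model, the transcription factor of inducible HSP70 genes in other animals, was below the expression filter, at 0.693 ± 0.064 FPKM at high, 0.456 ± 0.309 FPKM at low and 0.414 ± 0.124 FPKM at room temperature.

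The gene models whose profile was most like the mean of the 7 were ranked by Pearson r over 9 libraries among 5767 tested models with a protein name (median r 0.02, the top 1% above 0.82). They were WD repeat-containing protein 74, a ribosome biogenesis factor (r = 0.97, rho = 0.90), the mitochondrial protein FAM210A (0.96, rho = 0.87), BAG family molecular chaperone regulator 3, a partner of HSP70 in muscle of vertebrates (0.96, rho = 0.90), mitochondrial alternative oxidase (0.95, rho = 0.70) and a match to augerpeptide hhe53 (0.94, rho = 0.93). On deviations from group means r was 0.95, 0.94, 0.87, 0.35 and 0.76 in that order. The BAG3 match was at 4.03, 9.66 and 4.41 FPKM at high, 2.04, 2.11 and 0.877 FPKM at low and 4.89, 8.999 and 5.58 FPKM at room temperature, and did not pass between low and room temperature (log2 difference -1.48, limma adjusted p = 0.225). Like 6 of the HSP70 models, it was highest in replicate 2 of the high and room temperature groups. Alternative oxidase was the gene of these 5 called between low and room temperature (log2 difference -1.82, limma adjusted p = 0.0165).

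**Figure D5:**
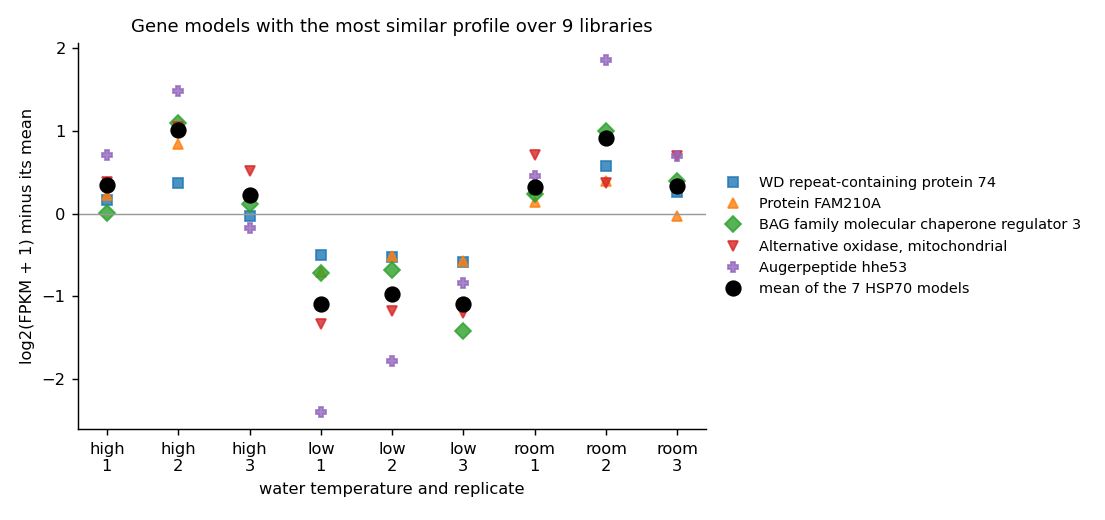
Log2(FPKM + 1) minus its mean over 9 libraries for the mean of the 7 HSP70 gene models (black circles) and the 5 most similar named gene models, by temperature and replicate. The low temperature libraries lie at -0.97 to -1.09 for the HSP70 mean, and replicate 2 of the high and room temperature groups is its highest library, at 1.01 and 0.92.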

How the data were processed

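RNA sequencing covered 9 adductor muscle libraries, grouped by the temperature in the labels. The authors deposited FPKM, per the file headers and title. HISAT2 2.0.4 and HTSeq 0.9.1 appear in the submitters' processing notes; build, settings, strand and handling of multi-mapped reads are not given in the sources at hand. FPKM times length was a whole multiple of a step in every library (largest distance from a whole number 3.66e-08), which gave read numbers, and the authors' divisor followed a median-of-ratios size factor rather than the read total.

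Values were tested as log2(FPKM + 1) with limma 3.58.1 (R 4.3.3) for the 8624 models averaging 1 FPKM or more, all 9 libraries in a single fit with eBayes trend. Scripts were tested on simulated data. Named were the members, per chaperone list the called models (up to 2) or else the most abundant, and the 5 models of most similar profile. Members and lists were chosen with earlier results of these data known. List patterns for HSP70 relatives, partners, HSP90 and digestive enzymes were corrected for false matches on names alone. Ratios used exact permutation tests in scipy 1.17.1. Alternatives are given in the closing section.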

Additional observations from a re-analysis of the deposited data

How the results depend on the processing

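For low against room temperature, 13 models in all were called. The number was 0 with no filter, 8 with a minimum mean of 5 FPKM, 7 rescaled to the same FPKM sum, 8 with quantile normalization, 6 with voom on recovered reads, 31 with array weights, 2 without both high temperature replicate 3 and low temperature replicate 3, and 0 to 12 leaving out each library. Members called there were 2, against 0 with no filter, rescaling, voom or without both libraries, 1 with the minimum of 5 or quantile normalization, and 0 to 2 leaving out each library. Of 4 loci 1 was called, against 0 with no filter, rescaling, quantile normalization, only the 2 groups or without both libraries, and 0 to 1 leaving out each library. For high against low temperature, 14 models in all became 4 with no filter, 89 with array weights, 1 without both libraries and 6 to 19 leaving out each library. Members called were 2, against 0 with no filter, rescaling, voom or without both libraries, 1 with the minimum of 5 or only the 2 groups, 3 with array weights or the replicate block, and 0 to 2 leaving out each library. Loci called were 1, against 0 with no filter, the minimum of 5, rescaling, only the 2 groups or without both libraries, 2 with a pseudocount of 0.1, the replicate block or array weights, and 0 to 2 leaving out each library. For high against room temperature 0 models became 0 to 2 leaving out each library. With the minimum of 5, Contig769.20, Contig80.193 and the Contig80 level fell below the filter and were not tested. Their calls were thus removed rather than lost in a test. The cause of the other changes was not tested.

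Signs turned only for differences that were not called. High minus room for Contig177.33 was 0.046 with array weights, 0.17 without both libraries and -0.53 to 0.17 leaving out each library. For Contig769.22 it was 0.061 without both libraries and -0.52 to 0.18 leaving out each library. Leaving out each library it was -0.39 to 0.0097 for Contig769.21, -0.64 to 0.048 for the Contig177 level and -0.55 to 0.065 for the Contig769 level. Low minus room for Contig626.55 was -0.18 with array weights, -0.33 without both libraries and -0.33 to 0.50 leaving out each library.

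Between libraries of different groups, the correlation of deviations was -0.10 to 0.24 with the same replicate number and -0.22 to 0.12 with other numbers. These ranges overlapped, so they do not settle whether the numbers pair the libraries. With the replicate block 3 members were called for low against room temperature, Contig769.22 being the added model. The number of all tested models called with this block is not given for any comparison, so the added calls have no background beside them. With 1 to 49 reads per low temperature library, depth limits the Contig769 and Contig80 values.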

Other observations

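The short model between the Contig177 genes that matches heat shock 70 kDa protein 1, evm.TU.Contig177.31 (505013 to 505426, minus strand), was named after its values were seen. It had 25, 1 and 0 reads at high, 0, 1 and 0 reads at low and 1, 0 and 0 reads at room temperature, so nearly all of its reads came from high temperature replicate 1, a library in which the neighbouring Contig177.28 and Contig177.33 were not the highest of their group.

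The model evm.TU.Contig141.23, a match to 78 kDa glucose-regulated protein, the HSP70 of the endoplasmic reticulum, was also named after its values were seen. It had 33.4, 90.2 and 52.9 FPKM at high, 13.5, 12.4 and 17.6 FPKM at low and 31.0, 35.2 and 32.1 FPKM at room temperature. Its low temperature libraries lay below all others, and it did not pass the limma test between low and room temperature (adjusted p = 0.359) or between high and low temperature (adjusted p = 0.0765). Other tested models of the same name did not separate. At low and room temperature evm.TU.Contig141.24 had 1.62, 0.974 and 0.446 against 0.765, 12.4 and 2.53 FPKM. For evm.TU.Contig11594.1 the values were 0.946, 1.47 and 0.203 against 0.855, 16.3 and 1.38 FPKM.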
